A study of Mus musculus with 10 samples.

Results

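Transcripts of embryonic globins and erythroid genes were followed in whole hearts of mouse embryos. The 8 genes were Hba-x, Hbb-y, Hbb-bh1, Alas2, Epb42, Slc4a1, Gata1 and Klf1. A probe set was taken when the platform annotation gave it exactly 1 gene symbol and that symbol was among the 8, which gave 15 of 45101 probe sets. Hearts of female embryos heterozygous for a heart conditional Hccs knockout were compared with hearts of female control littermates, both at 13.5 days post coitum (dpc). Hccs lies on the X chromosome and encodes the enzyme that attaches haem to the c-type cytochromes of mitochondria. With X inactivation, cells that have the enzyme and cells that lack it therefore lie side by side in such a heart. There were 5 arrays per genotype, each from 1 pool of 4 to 5 hearts of 1 genotype, so differences between single hearts are averaged within a pool. The driver of the recombinase, the alleles carried by the controls, and whether blood was rinsed from the chambers are not given in the sources used here.

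Red cells of the early mouse embryo arise in the yolk sac and circulate with nuclei. They make embryonic haemoglobin from the alpha-type chain Hba-x (zeta) and the beta-type chains Hbb-bh1 and Hbb-y (epsilon y), with Hbb-bh1 giving way to Hbb-y as these cells mature. Red cells from the fetal liver follow, and their haemoglobin is made of the adult alpha and beta chains. The adult chains are not taken here as a mark of fetal liver cells alone. A heart taken with blood in its chambers and vessels therefore carries red cell RNA of both kinds. In such bulk samples, fewer red cells and less transcript per red cell cannot be told apart, nor can the kind of red cell that a transcript came from.

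The values are log2 probe set signals from RMA, with array medians of 3.65 to 3.76. The label of the knockout was checked on Hccs, whose log2 signal was 10.68 ± 0.20 in knockout pools and 11.23 ± 0.08 in control pools (mean ± SD, n = 5 each; limma adjusted p = 0.0225 over 18193 genes). Markers of cardiomyocytes were bright in every pool, with Actc1 (cardiac actin) at 16.07 ± 0.05 in knockout pools and 16.20 ± 0.04 in control pools. Uty, a Y-linked gene with no target in female hearts, read 3.38 to 4.01 over the 10 arrays, and signals at that height are read here as near background. An array control for the 5′ part of 18S ribosomal RNA, which measures how much of that RNA was labelled, read 7.84 to 8.57 in knockout pools and 8.06 to 11.45 in control pools. Transcripts of the liver, a site of red cell formation at this stage, varied widely. Afp (alpha-fetoprotein) ran from 8.78 to 14.52 in knockout pools and from 8.94 to 12.67 in control pools, and its highest arrays were knockout pool 4 (14.52) and knockout pool 5 (14.26).

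None of the 8 genes differed between knockout and control hearts past an adjusted p of 0.05, in a limma fit over 18193 genes of which 2.58% passed, 1.63% higher and 0.945% lower in knockout. An unadjusted p under 0.05 was reached by 1 of the 8, Alas2, which was lower in knockout, against 20.6% of all genes in either direction and 7.48% in that one. The groups overlapped for all 8 genes, while they did not for 5.79% of all genes, 1.92% being lower in knockout. Of the 8, 5 had a negative and 3 a positive log2 change, with a median of -0.065, while 39.5% of all genes had a negative change and their median was 0.025. The 15 probe sets gave the same count of 0 passed in a fit over 45037 probe sets, of which 1.14% passed, 0.822% higher and 0.318% lower in knockout. Of the 15, 2 had an unadjusted p under 0.05, both lower in knockout, against 20% of all probe sets in either direction and 6.35% in that one. The groups overlapped for every one of the 15, while they did not overlap for 5.26% of all probe sets.

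**Figure D1:**
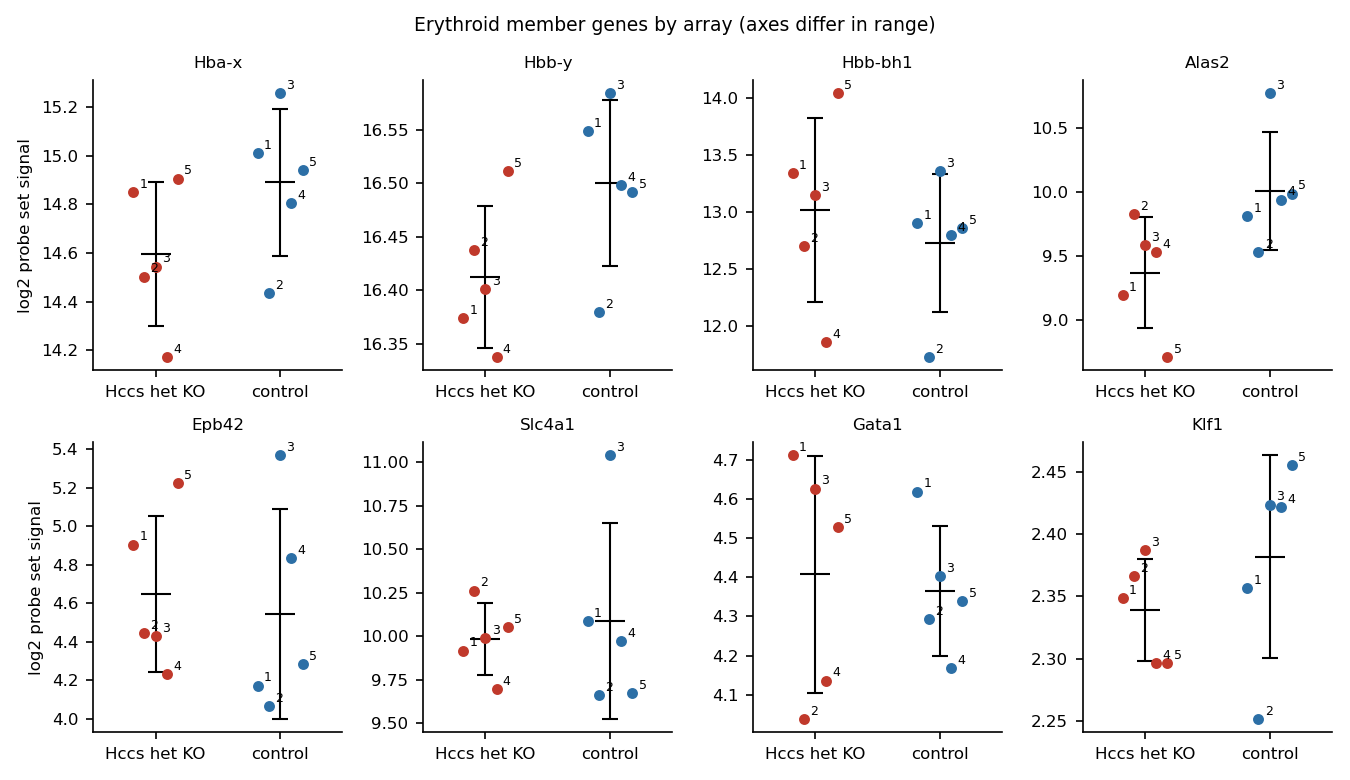
Log2 probe set signal of each of the 8 genes by array, on axes that differ in range; points are pools numbered by replicate, with the mean and SD (n = 5 each) as bars. Knockout and control pools overlap for every gene, and control pool 3 is the highest of the 10 for Hba-x, Hbb-y, Alas2, Epb42 and Slc4a1.

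Hba-x, the embryonic alpha-type chain, had log2 signals of 14.85, 14.50, 14.54, 14.17 and 14.91 in knockout pools 1 to 5, against 15.01, 14.43, 15.26, 14.81 and 14.94 in control pools 1 to 5. Knockout pool 4 was the lowest of the 10 and control pool 3 the highest, and the groups overlapped over most of their range. The log2 change was -0.29 (SE 0.17), with an adjusted p of 0.362 in limma.

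Hbb-y, the epsilon y chain, was measured by 3 probe sets, of which the brightest stood for the gene. It read 16.37, 16.44, 16.40, 16.34 and 16.51 in knockout pools, against 16.55, 16.38, 16.58, 16.50 and 16.49 in control pools. These signals lie at the top of the scale of the table, and the whole spread over 10 arrays was 0.25 log2 units, so how far bright signals were compressed is unknown. The log2 change was -0.088 (SE 0.047, limma adjusted p = 0.321).

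The dimmest Hbb-y probe set read 15.98, 15.85, 15.80, 15.74 and 15.88 in knockout pools, against 16.25, 15.95, 16.31, 16.08 and 16.21 in control pools. Only control pool 2 lay below the highest knockout pool. Its log2 change was -0.31 (SE 0.072), and its limma adjusted p over all probe sets, 0.0745, was the smallest of the 15. This p was 0.0424 without knockout pool 1 and 0.0483 without control pool 2, so whether this probe set passes turns on single arrays. The names of the other 2 probe sets end in x_at, which in the maker's naming marks probes that may also match other sequences. The same ending is on the brightest probe sets of Hbb-bh1 and Slc4a1, on the dimmest and middle alpha globin probe sets and on that of Hbb-b2.

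Hbb-bh1, the beta-type chain of the earliest embryonic red cells, varied most among the pools. Its brightest probe set read 13.34, 12.71, 13.15, 11.86 and 14.04 in knockout pools, against 12.90, 11.73, 13.36, 12.80 and 12.86 in control pools. The extremes were knockout pool 5 and control pool 2, which lay 2.31 log2 units apart, a 4.97-fold range. The other 2 probe sets were also highest in knockout pool 5 and ranged over 2.50 and 2.51 log2 units. The SD of the brightest was 0.81 in knockout pools and 0.60 in control pools, and the log2 change was 0.29 (SE 0.41, limma adjusted p = 0.71). The change of the other 2 was 0.15 (SE 0.46) and 0.24 (SE 0.45). With an error of this size, a difference smaller than the spread between pools could not be seen.

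The adult chains were read from 4 probe sets that the annotation assigns to several globin genes at once, so near-identical gene copies cannot be told apart. These lie outside the fit over genes and were tested in the fit over all probe sets. In all 4 the highest knockout pool lay below the lowest control pool, as it did for 1.47% of all probe sets. Past the adjusted p of 0.05, 2 of the 4 fell, against the 0.318% given above, and the other 2 had adjusted p of 0.0966 and 0.0904. Both that fell are alpha globin probe sets. The 3 alpha globin probe sets carry the same symbols, Hba-a1 and Hba-a2, so the 4 are not independent readings. None of the 3 probe sets with a single adult globin symbol passed. Those of Hba-a1 and Hba-a2 were dim, with mean signals of 2.59 (Hba-a1) and 1.95 (Hba-a2) in knockout pools, against 2.55 and 2.27 in control pools. That of Hbb-b2, whose name also ends in x_at, averaged 7.08 ± 0.67 in knockout pools and 6.66 ± 0.05 in control pools (SD, n = 5 each). The log2 difference was 0.42 (SE 0.27), opposite in sign to the shared probe sets. Its knockout pools lay on both sides of the control pools, at 6.46, 7.73, 7.37, 7.58 and 6.27 against 6.60 to 6.71. Its mean over all arrays, 6.87, was near the median over genes (6.50) and far below the shared beta globin probe set (14.75).

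The beta globin probe set, shared by Hbb-bt, Hbb-bs, Hbb-b2 and Hbb-b1, read 14.73, 14.69, 14.50, 14.59 and 14.04 in knockout pools, against 14.96, 14.87, 15.07, 14.94 and 15.06 in control pools. Knockout pool 5, the highest of all arrays in Hbb-bh1, was the lowest here. The log2 change was -0.47 (SE 0.12, limma adjusted p = 0.0966).

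The dimmest of 3 alpha globin probe sets, all shared by Hba-a1 and Hba-a2, read 13.55, 13.65, 13.38, 13.46 and 12.94 in knockout pools, against 13.93, 13.67, 14.31, 13.98 and 14.02 in control pools. Knockout pool 5 was again the lowest array, and the closest pair, knockout pool 2 and control pool 2, nearly touched. The log2 change was -0.58 (SE 0.15, limma adjusted p = 0.0904).

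The middle alpha globin probe set read 14.95, 14.62, 14.51, 14.70 and 14.73 in knockout pools, against 15.17, 15.02, 15.17, 15.08 and 15.25 in control pools. It fell by 0.44 on the log2 scale (SE 0.078, limma adjusted p = 0.0362). The brightest read 16.27, 16.21, 16.18, 16.16 and 16.09 in knockout pools, against 16.41, 16.33, 16.41, 16.35 and 16.44 in control pools, and fell by 0.21 (SE 0.039, limma adjusted p = 0.0415). Like Hbb-y it lies near the top of the scale, so the size of its change may be compressed, and with quantile normalization it was -0.092 and did not pass (adjusted p = 0.293).

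Both calls were lost, leaving 0 of 4 passed, when any 1 array other than knockout pool 1 was left out. Without knockout pool 1, 2 passed. With 1 array left out the log2 changes of these 2 ran from -0.50 to -0.39 and from -0.23 to -0.18. Over all genes, 105 to 1042 passed with 1 array left out, against 469 with all arrays. Without the arrays numbered 3 of both genotypes, 0 passed, and with the 18S signal as a covariate also 0, with adjusted p of 0.117 and 0.135 for the 2 that had passed. The log2 changes kept their sign, at -0.42 (SE 0.125) and -0.20 (SE 0.062) with that covariate. Without it they were -0.44 (SE 0.078) and -0.21 (SE 0.039). With the covariate Hccs also did not pass (limma adjusted p = 0.109 over genes). The 5′ 18S signal averaged 8.17 ± 0.35 in knockout pools and 10.05 ± 1.25 in control pools (SD, n = 5 each; exact permutation p = 0.0238, two-sided), and of the control pools only pool 3 overlapped the knockout pools. In the controls for the middle and 3′ parts of the same RNA the groups overlapped more, with control pool 2 (8.52, middle) and control pool 1 (8.82, 3′) also below the highest knockout pool (8.95 and 8.93). Its part in the result was not tested beyond this fit. The summed signal of 10 cardiomyocyte markers was also lower, at 18.36 to 18.54 in knockout pools and 18.59 to 18.70 in control pools (log2), and its part in the result was not tested. Whether the adult probe sets changed more than the embryonic ones was not tested either.

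**Figure D2:**
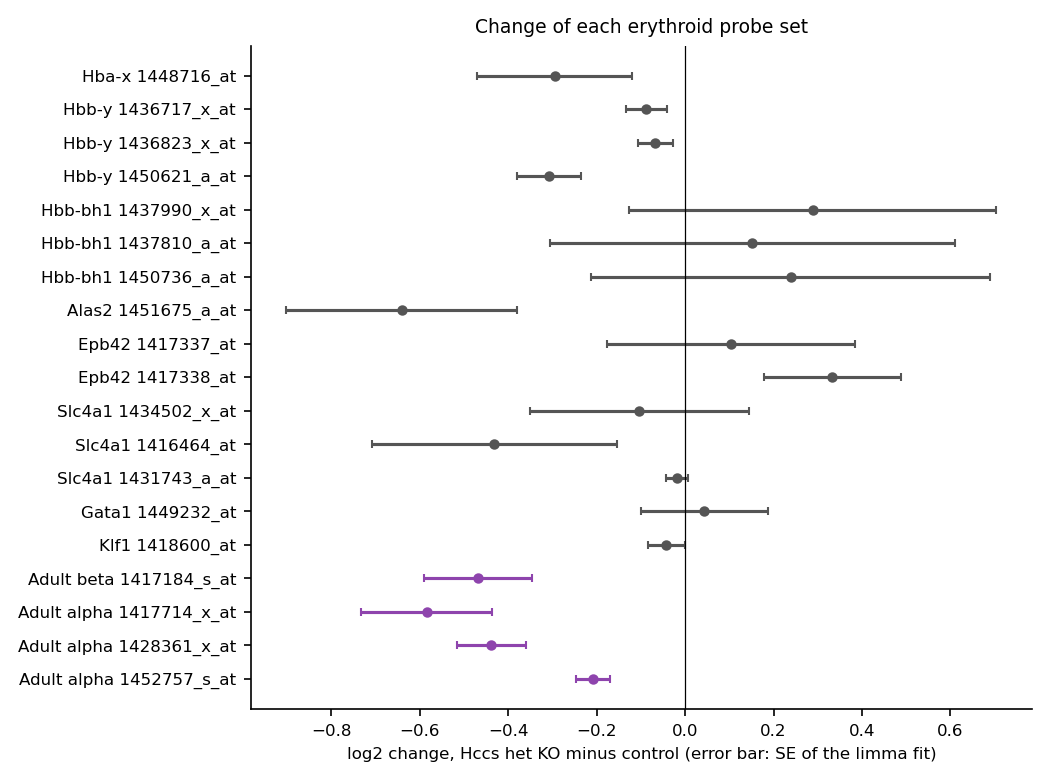
Log2 change, knockout minus control, of the 15 erythroid probe sets (grey) and of the 4 shared adult globin probe sets (purple), with the SE of the limma fit as error bars. The adult probe sets lie between -0.58 and -0.21, and the 3 Hbb-bh1 probe sets lie above 0 with the widest errors.

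**Figure D3:**
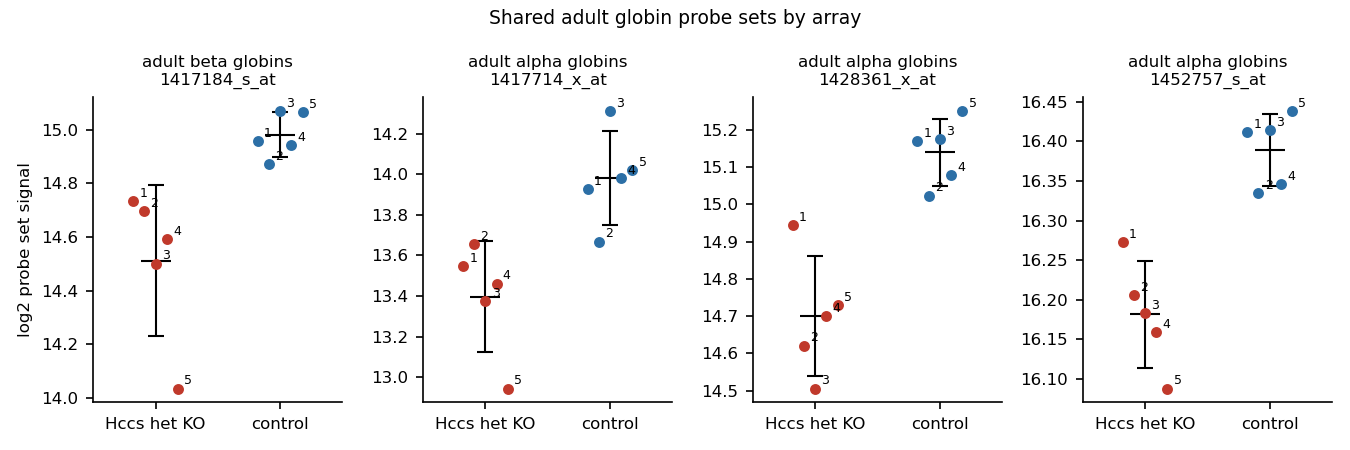
Log2 signal of the 4 shared adult globin probe sets by array, with pools numbered by replicate and the mean and SD (n = 5 each) as bars. Every knockout pool lies below every control pool in all 4 panels, on axes that differ in range.

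The sequences upstream of the embryonic and adult globin genes are shown because their transcripts are the ones set side by side over the pools. RefSeq's promoter table (GRCm38.p6) held 6 of the 8 genes, Hba-x, Hbb-y, Alas2, Epb42, Gata1 and Klf1. The 200 bases before the start are printed 5′ to 3′ for the embryonic genes Hba-x and Hbb-y, for the adult genes Hba-a1 and Hbb-bs, and for Alas2. Capitals mark matches, on either strand, to AGATAA (a form of the GATA factor motif), CACCC (the core bound by Klf1), CCAAT and TATAA.
Hba-x, chr11:32276400-32276599, plus strand: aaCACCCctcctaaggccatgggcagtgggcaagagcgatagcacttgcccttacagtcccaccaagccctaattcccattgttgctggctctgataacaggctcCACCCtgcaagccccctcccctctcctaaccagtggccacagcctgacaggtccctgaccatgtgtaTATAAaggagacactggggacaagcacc
Hbb-y, chr7:103853208-103853407, minus strand: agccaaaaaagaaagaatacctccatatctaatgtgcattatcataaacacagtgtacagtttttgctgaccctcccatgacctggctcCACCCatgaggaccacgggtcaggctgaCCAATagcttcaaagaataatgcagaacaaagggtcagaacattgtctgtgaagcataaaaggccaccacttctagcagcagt
Hba-a1, chr11:32283472-32283671, plus strand: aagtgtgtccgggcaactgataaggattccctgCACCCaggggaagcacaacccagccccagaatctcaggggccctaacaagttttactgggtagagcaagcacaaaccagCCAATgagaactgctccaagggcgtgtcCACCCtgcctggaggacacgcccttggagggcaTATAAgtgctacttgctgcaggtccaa
Hbb-bs, chr7:103827929-103828128, minus strand: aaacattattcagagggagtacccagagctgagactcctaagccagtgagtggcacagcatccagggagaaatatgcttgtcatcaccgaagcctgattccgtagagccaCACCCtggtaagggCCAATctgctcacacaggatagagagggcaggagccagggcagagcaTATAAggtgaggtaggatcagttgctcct
Alas2, chrX:150547217-150547416, plus strand: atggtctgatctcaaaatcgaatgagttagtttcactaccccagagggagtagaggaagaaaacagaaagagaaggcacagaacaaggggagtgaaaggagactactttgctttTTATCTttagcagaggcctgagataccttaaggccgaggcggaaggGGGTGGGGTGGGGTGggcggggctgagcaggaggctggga
CACCC was present in the 5 windows printed, with 3 copies on the opposite strand in Alas2, and in those of Gata1 and Klf1, but not in that of Epb42. It was present in 45.5% of all 32851 RefSeq promoter windows of this length. CCAAT was present in Hbb-y, Hba-a1, Hbb-bs and Klf1 and in 29.3% of all windows. TATAA was present in Hba-x, Hba-a1, Hbb-bs and, on the opposite strand, Epb42, and in 18.5% of all windows. AGATAA was matched only in Alas2 among the 5 printed windows, on the opposite strand, and in 7.8% of all windows. Other forms of the GATA motif were not searched. TGATAA stands in lower case in Hba-x and Hba-a1 and, on the opposite strand, in Hbb-y. The lack of capitals therefore does not mean that a window holds no GATA motif. A match of letters is a description of the window and does not show that a factor is bound there.

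Alas2, the erythroid enzyme that starts haem synthesis, had log2 signals of 9.19, 9.83, 9.59, 9.53 and 8.71 in knockout pools, against 9.81, 9.53, 10.77, 9.94 and 9.99 in control pools. Knockout pool 5 was the lowest array and control pool 3 the highest, the same 2 arrays that were lowest and highest for the dimmest alpha globin probe set. The log2 change was -0.64 (SE 0.26), the largest in size of the 8, and with a limma adjusted p of 0.203 it did not pass. Without control pool 3 the log2 change was -0.45, and with the 18S signal as a covariate -1.16 (limma adjusted p = 0.117). Alas1, the housekeeping enzyme for the same step, read 10.28 ± 0.13 in knockout pools and 10.33 ± 0.08 in control pools in its brightest probe set, a log2 change of -0.045 (SE 0.067). A dimmer Alas1 probe set rose by 0.17 on the log2 scale (limma adjusted p = 0.0434 over all probe sets), while the brightest did not pass.

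Slc4a1, the anion exchanger band 3 of the red cell membrane, was measured by 2 bright probe sets and by 1 near 2.1. The brightest read 9.92, 10.26, 9.99, 9.70 and 10.05 in knockout pools, against 10.09, 9.66, 11.04, 9.97 and 9.67 in control pools. Control pool 3 stood apart from all other arrays. The log2 change was -0.10 (SE 0.24, limma adjusted p = 0.833), and without control pool 3 it was 0.13, so its sign rested on that array. With the 18S signal as a covariate it was -0.86 (limma adjusted p = 0.0584), the closest that any of the 8 came to the threshold with that covariate. The second read 8.49 to 9.22 in knockout pools and 8.70 to 10.33 in control pools, a log2 change of -0.43 (SE 0.28).

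Epb42, protein 4.2, which ties band 3 to the membrane skeleton, was close to background. Its brighter probe set read 4.90, 4.45, 4.43, 4.23 and 5.23 in knockout pools, against 4.17, 4.06, 5.37, 4.83 and 4.28 in control pools. The groups overlapped fully, with a log2 difference of 0.10 (SE 0.28, limma adjusted p = 0.854). The dimmer one lay below the array medians in all pools, at 2.17 to 2.91 in knockout pools and 2.05 to 2.19 in control pools.

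The transcription factors gave little signal. Gata1, the factor that drives the erythroid programme, read 4.71, 4.04, 4.63, 4.14 and 4.53 in knockout pools, against 4.62, 4.29, 4.40, 4.17 and 4.34 in control pools, with a log2 change of 0.043 (SE 0.14). Klf1, the activator of adult beta globin that binds the CACCC motif, read 2.30 to 2.39 in knockout pools and 2.25 to 2.46 in control pools, below the median of every array. No difference in Klf1 could be seen at such a signal, and its log2 change was -0.043 (SE 0.043).

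The members did not all vary over the pools as 1 block. The mean deviation of the 8 genes from their own means was highest in control pool 3, at 0.51, and lowest in knockout pool 4 and control pool 2, at -0.36 and -0.35. Of the 8, 5 had their highest value in control pool 3 and 4 had their lowest in control pool 2. In the other knockout pools the mean deviation was 0.063, -0.070, -0.0040 and 0.14 in pools 1, 2, 3 and 5, and in control pools 1, 4 and 5 it was 0.046, 0.037 and -0.014. With the genotype means removed, the correlation of a gene with the mean of the other 7 was 0.90 for Hba-x, 0.83 for Hbb-y, 0.77 for Epb42, 0.75 for Slc4a1 and 0.75 for Hbb-bh1. It was 0.54 for Klf1, 0.31 for Gata1 and 0.17 for Alas2, as a description over 10 arrays that share all genes. Klf1 and Gata1 were dim, so their lower values say little. Of Hba-x, Hbb-y, Hbb-bh1, Slc4a1 and Alas2, which were bright, only Alas2 had a low value.

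Among the 5 brighter genes (Hba-x, Hbb-y, Hbb-bh1, Alas2 and Slc4a1) 10 pairwise relations were computed over the 10 arrays, with 100000 permutations each and Benjamini-Hochberg adjustment over the 10. Hba-x and Hbb-y varied together, with Pearson's r = 0.865 (permutation p = 0.00139, adjusted p = 0.0139) and Spearman's rho = 0.818 (permutation p = 0.00571, adjusted p = 0.0571). Without the 2 arrays farthest from the median of Hba-x, knockout pool 4 and control pool 3, r was 0.714. Hba-x and Hbb-bh1 had r = 0.706 (permutation p = 0.0233, adjusted p = 0.0806) and rho = 0.733 (permutation p = 0.02, adjusted p = 0.0999), and r was 0.57 without the same 2 arrays. With genotype means removed the r of this pair was 0.95, that of Hba-x and Hbb-y 0.82, and that of Alas2 and Hbb-bh1 -0.045. All permutations ran over the arrays of both genotypes. Alas2 and Hbb-bh1 had r = -0.172 (permutation p = 0.644, adjusted p = 0.644) and rho = -0.079 (permutation p = 0.837), and r was 0.253 without knockout pool 5 and control pool 2. The remaining 7 relations had adjusted p from 0.0806 to 0.328. The adult probe sets were not entered, since their groups do not overlap and each genotype has too few arrays for a correlation of its own.

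**Figure D4:**
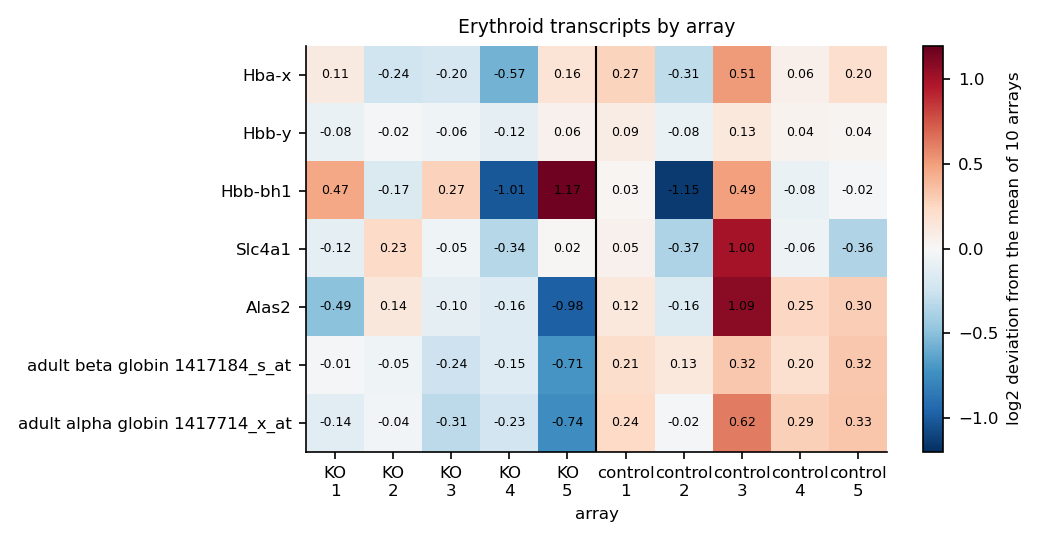
Log2 deviation of each transcript from its own mean over the 10 arrays, knockout pools left and control pools right. Knockout pool 5 combines the highest Hbb-bh1 (1.17) with the lowest Alas2 (-0.98). It is also lowest in the beta globin and dimmest alpha globin probe sets drawn here (-0.71 and -0.74). Of the alpha globin probe sets not drawn, it was lowest in the brightest (16.09). In the middle one knockout pool 3 was lowest, at 14.51 against 14.73 in knockout pool 5. Control pool 3 is above the mean in every row.

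The genes whose values followed the mean of the 8 most closely, with genotype means removed and a mean level above the median, were Tcf7l1 (r = 0.939), Mrfap1 (0.924), Acly (0.912), Map2k3 (0.904), Zcchc3 (0.90), Lrrc47 (0.898), Marcksl1 (0.895), Pabpc1 (0.891), Eif1b (0.891) and Alg2 (0.89), each over 10 arrays. None of these 10 was on an erythroid list. The first that were, chosen after their values were seen, stood at ranks 16 and 19 and were Ube2o, a ubiquitin enzyme of maturing red cells, with r = 0.869, and Car2, carbonic anhydrase 2, with r = 0.849. These are the highest of many correlations over few arrays, and no test was made of them.

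Other genes with a role in red cells were read from 4 lists. The arrays read whole hearts, so which cells a listed transcript came from is not known. Of 15 measured red cell membrane genes 1 rose, none fell and 14 did not pass. The 1 was Rhag, the Rh-associated glycoprotein, which read 3.87, 3.90, 3.36, 3.42 and 3.80 in knockout pools, against 3.04, 2.62, 3.13, 3.06 and 3.15 in control pools. It rose by 0.67 on the log2 scale (SE 0.14, limma adjusted p = 0.0422). All 10 values lie near or below the signal of Uty, so the size of this rise is uncertain. Among the brightest that did not pass, Tmod1, tropomodulin, which cardiomyocytes also make, gave a log2 difference of -0.33 (SE 0.12) and Gypc, glycophorin C, gave 0.13 (SE 0.066). The list median was -0.043.

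Of 12 measured genes of haem synthesis and iron supply in red cells 1 fell and 11 did not pass, with a median of -0.058. The 1 was Abcb10, a mitochondrial transporter needed for haem synthesis in red cells. It read 8.57, 8.80, 8.77, 8.52 and 8.41 in knockout pools, against 9.02, 9.01, 9.22, 8.96 and 8.90 in control pools. The highest knockout pool lay below the lowest control pool, as it did for 1.92% of all genes. Abcb10 fell by 0.41 on the log2 scale (SE 0.087, limma adjusted p = 0.0445). Whether this fall lay in red cells or in other cells of the heart was not tested. Among the brightest that did not pass, Glrx5, a glutaredoxin of iron-sulfur cluster assembly, gave a log2 difference of -0.10 (SE 0.071) and Urod, uroporphyrinogen decarboxylase, -0.21 (SE 0.066). The calls of Rhag and Abcb10 were made with all 10 arrays. Without the arrays numbered 3 of both genotypes 0 membrane genes and 0 haem genes passed, and with 1 array left out it was 0 or 1 for each list.

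None of 14 erythroid transcription regulators passed the limma threshold, although 1 was under 0.05 unadjusted, against 20.6% of all genes, and the list median was 0.046. The brightest were Klf3, a repressor related to Klf1, with a log2 change of 0.13 (SE 0.062), and Lmo2, a bridging protein of the Gata1 complex that endothelium also makes, with 0.31 (SE 0.078, limma adjusted p = 0.0667). None of 14 erythroid receptors and enzymes passed, 1 had an unadjusted p under 0.05, and 12 of the 14 had a negative log2 change, against 39.5% of all genes, with a median of -0.12. The brightest were Prdx2, the peroxiredoxin of red cells, at -0.0050 (SE 0.047) and Xpo7, an exportin of maturing red cells, at -0.047 (SE 0.061).

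Other blood cells and tissues were read from lists of markers, whose part in the values above was not tested. Over all genes, 20.6% had an unadjusted p under 0.05. None of 9 genes of megakaryocytes and platelets passed, 2 had an unadjusted p under 0.05, and 1 of the 9 had a negative change, against 39.5% of all genes, with a median of 0.18. Their summed signal was 10.31 to 11.09 in knockout pools and 10.17 to 10.40 in control pools (log2). The brightest were Pf4 with 0.28 (SE 0.13), Clec1b with 0.45 (SE 0.11, limma adjusted p = 0.0584) and Ppbp with 0.72 (SE 0.34). Gp9, chosen after its value was seen, read 4.69 ± 0.89 in knockout pools and 3.14 ± 0.20 in control pools (limma adjusted p = 0.0599). The groups did not overlap for 2 of the 9, Gp9 and Clec1b, against 5.79% of all genes.

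None of 12 genes of macrophages and leukocytes passed, 2 had an unadjusted p under 0.05, and the median was 0.034. The summed signal was 11.65 to 12.11 in knockout pools and 11.51 to 11.91 in control pools (log2). Csf1r had a log2 change of -0.049 (SE 0.13), Lyz2 of -0.42 (SE 0.12) and C1qb of 0.51 (SE 0.18). None of 7 liver genes passed, 0 had an unadjusted p under 0.05, and their summed signal was 9.08 to 14.71 in knockout pools and 9.33 to 12.88 in control pools (log2). Afp had a log2 change of 0.41 (SE 1.18), Ttr of 0.22 (SE 1.04) and Apoa1 of -0.54 (SE 1.45). The 2 knockout pools with the most Afp, pools 4 and 5, were at opposite ends in Hbb-bh1, with 11.86 and 14.04.

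Of 10 cardiomyocyte genes 3 fell, against 0.945% of all genes, and 7 did not pass, with a median of -0.20. Of the 10, 9 had a negative change, 8 an unadjusted p under 0.05 and 4 did not overlap between the groups, against 39.5%, 20.6% and 5.79% of all genes. Actc1 had a log2 change of -0.13 (SE 0.033), Tnnt2 of -0.12 (SE 0.048), and Myl2 fell by 0.23 (SE 0.042, limma adjusted p = 0.0291). Myh7 and Tnni1 were the other 2 that fell (log2 change -0.47 and -0.30, named after their values were seen). None of 8 endothelial genes passed, with Emcn at 0.13, Tek at 0.023 and Npr3 at -0.19, and 4 had a negative and 4 a positive change. An unadjusted p under 0.05 was reached by 4, all lower in knockout, against 7.48% of all genes in that direction. These were Npr3 and, named after their values were seen, Cdh5 (-0.29), Kdr (-0.46) and Tie1 (-0.31). Their summed signal was 13.03 to 13.20 in knockout pools and 13.08 to 13.21 in control pools. None of 5 epicardial genes passed, 0 at an unadjusted p under 0.05, with Upk3b at 0.069, Tbx18 at 0.18 and Aldh1a2 at 0.26. Of 6 mesenchymal genes 1 rose, against 1.63% of all genes. The 1 was Tcf21 (log2 change 0.61, named after its value was seen), while Col3a1 had 0.012, Postn -0.10 and Dcn -0.050. The number of cardiomyocyte genes that passed was 0 to 3 with 1 array left out and 0 without the arrays numbered 3.

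**Figure D5:**
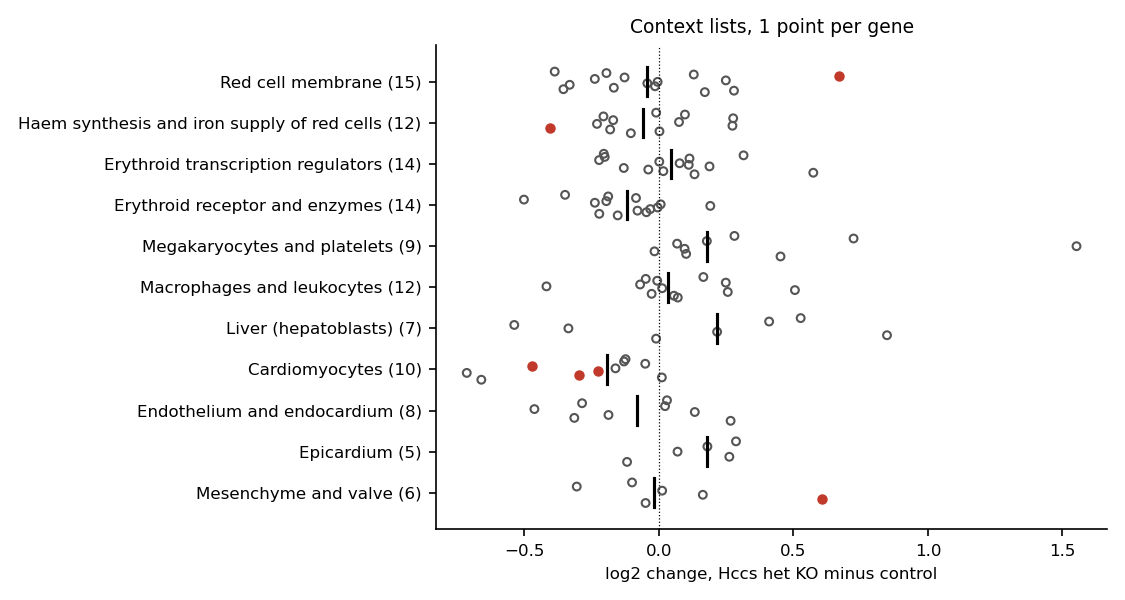
Log2 change, knockout minus control, of each measured gene in the erythroid lists and the lists of other cell types, with the number of genes in brackets. Filled points passed an adjusted p of 0.05, open points did not, and vertical bars are list medians, which lie between -0.20 and 0.22.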

How the data were processed

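Whole hearts of female mouse embryos were pooled by genotype, and 5 ug of RNA per pool were labelled with biotin for Affymetrix arrays, per the labels' protocols. The authors deposited log2 signals per probe set. Per the submitters' processing notes, they used RMA and Partek (versions not given in the sources used here). That the scale is log2 follows from the range of values. RMA brings arrays to a common distribution, so a change of total RNA is not seen.

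Of 45101 probe sets 64 were array controls, 34945 had 1 symbol, 932 several and 9160 none. Symbols came from the platform annotation, and all 15 member probe sets kept theirs when matched by Entrez number to RefSeq (GRCm38.p6). The probe set with the highest mean stood for a gene (18193 genes). The limma package (3.58.1, R 4.3.3) gave two-sided tests of knockout minus control with lmFit and eBayes and genotype alone in the model. Dim genes were kept, and Benjamini-Hochberg adjusted p under 0.05 passed. A second fit used all 45037 probe sets that are no control. SE is that of the moderated fit. Arrays, not depth, limit the precision. The labels say the 5 pools per genotype are biological replicates. Same-numbered arrays did not deviate together (correlation -0.091 to 0.077 over genes), so numbers were not taken as pairs. The fit was tested on simulated data.

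The members and lists were chosen with earlier results of these data known. Named are the members, Hccs, Alas1, up to 4 passed and the 2 brightest not passed of each erythroid list, the 10 genes most alike, and the 3 brightest of each other list. List genes without a probe set of 1 symbol were not analysed here. The alternatives were a replicate block, quantile normalization, median centring, filters, other probe set choices, limma settings, the 18S signal as a covariate, thresholds and arrays left out. Correlations used scipy 1.17.1 and plots matplotlib 3.10.9 (Python 3.11.15).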

Additional observations from a re-analysis of the deposited data

Results flagged for a closer look

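In 7 of the 128 groups of 5 arrays examined, 1 array lay far from the other 4, where about 1 in 20 is flagged by chance. Among red cell genes these were Rhag in control pool 2, at 2.62 against 3.04 to 3.15 in the other control pools, Gypc in knockout pool 2, at 9.10 against 9.30 to 9.36, and Prdx2 in knockout pool 5, at 13.90 against 14.04 to 14.09. Of the genes most like the erythroid mean, Tcf7l1 was low in knockout pool 4, at 8.96 against 9.03 to 9.04 in the other knockout pools, and Mrfap1 was low in the same pool, at 13.69 against 13.81. In control pool 3 the macrophage gene Csf1r read 9.80 against 10.18 to 10.33, and the mesenchymal gene Dcn 11.97 against 12.44 to 12.55. None of the 15 erythroid probe sets and none of the 4 shared adult globin probe sets was flagged.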

How the results depend on the processing

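The count of 0 of 8 erythroid genes past the threshold was the same under all 24 alternatives. Hba-x, Hbb-y, Alas2 and Klf1 kept a negative log2 change in each alternative that gave a value, from -0.50 to -0.19 for Hba-x and -1.16 to -0.45 for Alas2. Signs turned, all far from the threshold, for Gata1 with array weights (-0.0012), without the arrays numbered 3 (-0.0017), and with 1 array left out (-0.032, -0.011 and -0.0059 without knockout pool 1, knockout pool 3 and control pool 4, in a range from -0.032 to 0.14). They turned for Hbb-bh1 and Epb42 with the 18S covariate (-0.030 and -0.45), for Epb42 without knockout pool 5 and control pool 2 (-0.041 and -0.016, in a range up to 0.31), and for Slc4a1 without control pool 3 (0.13, in a range from -0.21) and without the arrays numbered 3 (0.13). The 18S covariate moved Slc4a1 to -0.86 (adjusted p = 0.0584). Klf1 was removed by both filters, and Gata1 and Epb42 by the one at the median.

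Of the 15 probe sets 1 passed with array weights and 1 at a threshold of 0.10, and 0 to 1 with 1 array left out. Of the 4 shared adult globin probe sets, whose alternatives were added after seeing the data, 2 passed in the fit as reported. With the replicate number as a block it was 0, with quantile normalization 1, with median centring 0, with each of the 2 filters 1, with array weights 3, with the 18S covariate 0, at thresholds of 0.01 and 0.10 it was 0 and 4, without the arrays numbered 3 it was 0, and with 1 array left out 0 to 2. Their log2 changes kept their sign, but the brightest alpha globin probe set went to -0.092 with quantile normalization (adjusted p = 0.293), against -0.21.

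Of all 18193 genes 469 passed. The count was 36 with the replicate block, 759 with the median filter, 945 with array weights, 296 with the 18S covariate, 14 and 1160 at thresholds of 0.01 and 0.10, 30 without the arrays numbered 3, and 105 to 1042 with 1 array left out. The numbers of red cell membrane, haem, cardiomyocyte and mesenchymal genes that passed, 1, 1, 3 and 1 as reported, were 0, 0, 0 and 0 with the replicate block and 0, 0, 0 and 0 without the arrays numbered 3. With 1 array left out they were 0 to 1, 0 to 1, 0 to 3 and 0 to 1, and for regulators, platelets, macrophages and endothelium 0 to 1 each. The adjusted p of Hccs ran from 0.0098 to 0.109. The causes were not tested. Dim signals limit Klf1, Gata1 and Epb42, and signals near the top of the scale limit Hbb-y and the brightest alpha globin probe set.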
